A study of Rattus norvegicus with 6 samples.

Results

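Tubular injury transcripts are genes whose messenger RNA or protein is used to follow damage, loss of specialised state or regeneration of kidney tubule cells. A rise of the messenger RNA with injury is not implied for each member, so the sign of a difference is not read as injury. The set examined here was fixed by name and holds 32 genes, from the urinary injury marker Havcr1 to the keratins, fibrinogen chains and annexins of stressed epithelium. A probe whose RefSeq accession belongs to the gene was found for 31 of them, and Sox9, a transcription factor of regenerating tubules, had none. Of these 31, 28 had a probe that stood well above background in every rat and were tested among 12007 genes, while Krt20, Mmp7 and Fgg were too dim. The samples were renal cortex from male Sprague-Dawley rats (Crl:CD(SD)), 5 weeks old when bought and kept on a basal diet. Corn oil was given to 3 of them for 4 weeks, and the other 3 received 1-amino-2,4-dibromoanthraquinone (ADBAQ), a brominated anthraquinone dye intermediate, at 1000 mg/kg/day for the same time. The labels describe biological replicates, and each rat's RNA was read on its own 1-colour Agilent array. The design asks how the renal cortex transcriptome differs between the treatment groups.

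As background, an injured proximal tubule cell sheds the outer part of KIM-1, the product of Havcr1, into the urine, and its neighbours secrete lipocalin-2, clusterin and osteopontin. Surviving cells flatten, build vimentin and keratin filaments, display adhesion receptors such as CD44 and VCAM-1, and divide to replace lost cells. Several of these genes are also active in healthy distal segments, in leukocytes or in fibroblasts, so that a cortex extract holds them without injury.

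No member of the set passed the test after ADBAQ. With limma and Benjamini-Hochberg adjustment across the 12007 genes, 0 of 28 members were called higher and 0 lower at 0.05, where 0.225% and 0.0666% of all genes were called higher and lower (27 and 8 genes, against 1027 and 54 without scaling between arrays and 66 and 77 with normexp background correction). At an unadjusted p under 0.05 there was 1 member of 28 (3.57%), against 19.4% of all genes. The ADBAQ rats lay wholly above the corn oil rats in 2 members (7.14%), Spp1 and Cd44, against 12.7% of all genes, and wholly below them in 0, against 14.9%. Of the 28 differences, 20 were positive (71.4%, against 47.7% of all genes), and their median was 0.068 on the log2 scale, against -0.011 over all genes. That median was 0.021 without corn oil rat 1, 0.038 without ADBAQ rat 3 and 0.11 without corn oil rat 2, and the SD between rats of the members' median was 0.073. The shares of members past an unadjusted p or with separate groups were thus below those of all genes. Members also spread more between rats of a group, with a median SD of 0.215 against 0.119 for all genes. For the same difference, a wider spread makes a small p or separate groups harder to reach. The part of that spread in these shares was not tested. Single members differed widely, from -1.56 for Tff3 to 0.84 for Spp1. In whole cortex, a change in the number of cells of a type and a change in RNA per cell cannot be told apart. Neither of the 2 slides, each scanned on its own date, held arrays of both groups, so treatment cannot be told apart from slide or scan date either.

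**Figure D1:**
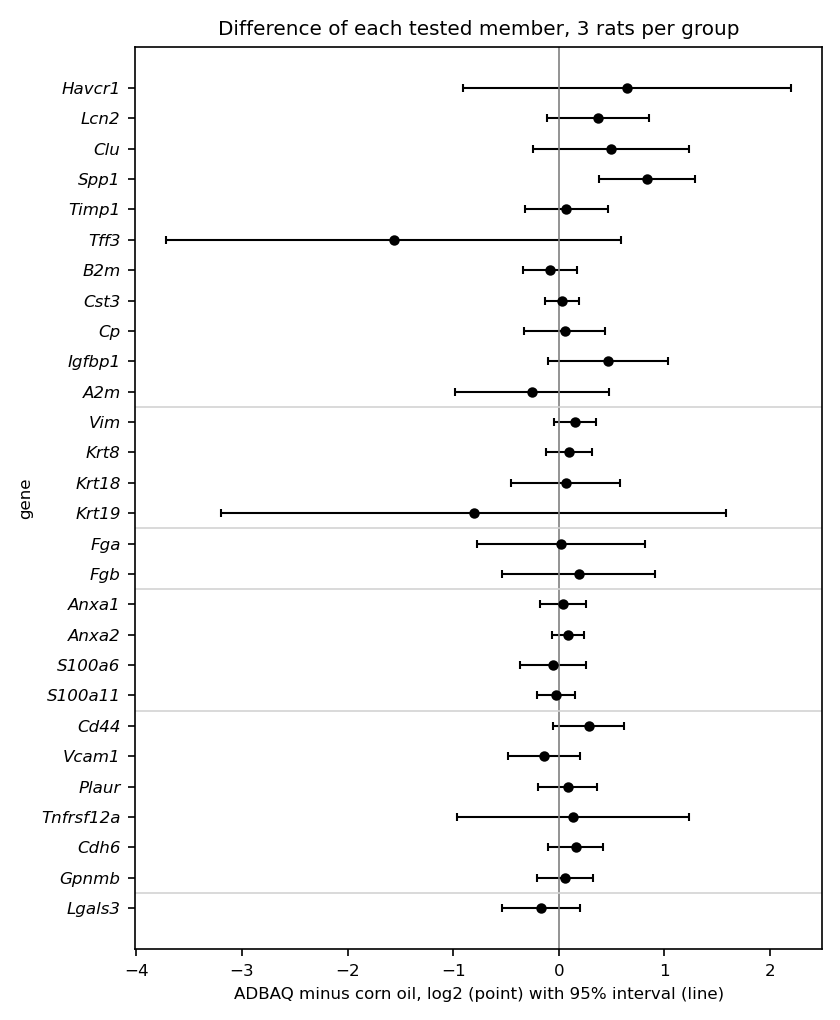
Difference between ADBAQ and corn oil (x axis, log2) for each of the 28 tested members (y axis, ordered by role, with grey lines between roles). Points are limma estimates from 3 rats per group and lines their 95% intervals. The interval of Spp1, from 0.38 to 1.29, lies above 0, and those of the other 27 members include 0.

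Signals are given as log2 relative to the 75th percentile of the same array, so that 0 equals that percentile. Values of different probes depend on the probe and are not compared with each other. Spp1 encodes osteopontin, a secreted phosphoprotein of tubular epithelium that binds integrins and CD44 and attracts macrophages. It read 2.98, 2.89 and 2.88 in corn oil rats 1, 2 and 3, and 3.58, 3.51 and 4.18 in ADBAQ rats 1, 2 and 3. All ADBAQ rats lay above all corn oil rats, with ADBAQ rat 3 the highest. The difference was 0.84 ± 0.18 (SE, n = 3 per group), a 1.79-fold ratio with a 95% interval of 1.30 to 2.45. Its limma p was 0.0041 unadjusted and 0.12 after adjustment over all genes. Without scaling between arrays, which moved the median of all genes from -0.011 to 0.15, the difference was 1.00 and passed (adjusted p = 0.038), and over all settings tried the adjusted p ran from 0.038 to 0.24. Osteopontin is also made in healthy thick limb and distal tubule. Of 9 tested markers of these segments, 3 had a positive and 6 a negative difference, from -0.46 to 0.51, with 0 called. The part of these segments in the Spp1 difference was not tested.

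Havcr1, the transcript of kidney injury molecule-1, varied far more between ADBAQ rats than between groups. The corn oil rats read -4.58, -4.04 and -4.57, and the ADBAQ rats -5.05, -3.72 and -2.48. ADBAQ rat 3 was the highest and ADBAQ rat 1 the lowest of the 6, so the groups overlapped, although the probe was well above background on all 6 arrays. The difference was 0.64 ± 0.63 (SE, n = 3 per group), with a 95% interval from -0.91 to 2.20 (adjusted p = 0.61). Without ADBAQ rat 3 it was 0.0092 and without ADBAQ rat 1 it was 1.29. The SD was 0.31 in corn oil and 1.29 in ADBAQ, and 98.8% of all genes had a smaller pooled SD.

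Lcn2, the iron-siderophore carrier lipocalin-2 (NGAL), had -1.99, -2.32 and -2.25 in corn oil and -2.11, -1.92 and -1.41 in ADBAQ. ADBAQ rat 3 was again the highest, while ADBAQ rat 1 lay within the corn oil range. The difference was 0.37 ± 0.20 (SE, n = 3 per group, adjusted p = 0.35) and 0.17 without ADBAQ rat 3. Clusterin, a secreted chaperone encoded by Clu, showed its spread in the other group: 3.04, 4.21 and 3.88 in corn oil against 4.33, 4.02 and 4.26 in ADBAQ. Corn oil rat 1 stood low, and the other corn oil rats reached or approached the ADBAQ level. The Clu difference of 0.50 ± 0.30 (SE, adjusted p = 0.41) was 0.16 without corn oil rat 1, and the other Clu probe gave 0.53.

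Tff3, the trefoil factor of mucosal repair, had the widest fitted difference of the set and no separation. It read 4.32, 4.10 and 6.08 in corn oil and 4.50, 1.63 and 3.68 in ADBAQ. Corn oil rat 3 was far above the others and ADBAQ rat 2 far below, and ADBAQ rat 1 exceeded corn oil rats 1 and 2. The difference of -1.56 ± 0.88 (SE, n = 3 per group, adjusted p = 0.38) had a 95% interval from -3.72 to 0.59 and became -0.74 without ADBAQ rat 2. The other Tff3 probe gave -1.68, with the same rats highest and lowest.

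Of the remaining secreted or filtered products, Igfbp1, which binds insulin-like growth factors, read 1.66, 0.88 and 0.93 in corn oil and 1.82, 1.43 and 1.62 in ADBAQ. Corn oil rat 1 lay among the ADBAQ rats, and the difference was 0.47 ± 0.23 (SE, adjusted p = 0.33), or 0.72 without that rat. Timp1, an inhibitor of matrix metalloproteinases that rises in fibrosing kidney, read 0.99, 1.53 and 1.21 in corn oil and 1.13, 1.34 and 1.48 in ADBAQ. The ADBAQ rats lay within the corn oil range, with a difference of 0.071 ± 0.16 (SE, adjusted p = 0.83). B2m, the light chain of class I histocompatibility molecules that is filtered and reabsorbed by tubules, read 7.35, 7.60 and 7.33 in corn oil and 7.20, 7.42 and 7.41 in ADBAQ. Its difference was -0.083 ± 0.10 (SE, adjusted p = 0.69), and all 5 B2m probes gave values between -0.23 and -0.083. Cst3, the protease inhibitor cystatin C, differed by 0.031 with a 95% interval from -0.13 to 0.19, one of the tightest of the set. The copper protein gene Cp and the protease inhibitor gene A2m differed by 0.057 ± 0.16 and -0.25 ± 0.30 (SE). Mmp7, the matrix protease matrilysin, was well above background only on the array of corn oil rat 3, at -5.64, and was not tested.

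The cytoskeletal members gave small differences apart from Krt19. Vim, the intermediate filament of mesenchymal and regenerating cells, read 1.04, 1.02 and 0.97 in corn oil and 1.29, 1.19 and 1.03 in ADBAQ. ADBAQ rat 3, the highest for Havcr1 and Spp1, had the lowest Vim signal of its group and lay between corn oil rats 1 and 2. The Vim difference was 0.16 ± 0.080 (SE, adjusted p = 0.34), with a 95% interval from -0.042 to 0.35.

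Krt8 and Krt18 encode the keratin pair of simple epithelia. Krt8 read 2.61, 2.31 and 2.41 in corn oil and 2.53, 2.54 and 2.56 in ADBAQ, and Krt18 read 3.28, 3.46 and 2.96 in corn oil and 3.52, 3.47 and 2.91 in ADBAQ. The ADBAQ values of Krt8 fell inside the corn oil range, and Krt18 was low in the rat numbered 3 of each group. Their differences were 0.10 ± 0.088 and 0.065 ± 0.21 (SE), with adjusted p values of 0.57 and 0.88. The Krt8 difference ran from 0.034 without corn oil rat 2 to 0.18 without corn oil rat 1, and the other Krt18 probes gave 0.35 and 0.035. Krt19, a keratin of ducts and of reactive tubules, ran from -2.67 (rat 1) through -0.92 (rat 2) to 0.45 (rat 3) in corn oil, and its ADBAQ rats read -3.35, -1.22 and -0.98. Rat 1 was the lowest in each group, and the SD of 1.56 in corn oil and 1.31 in ADBAQ exceeded the difference of -0.80 ± 0.97 (SE, adjusted p = 0.68). That difference was -0.054 without ADBAQ rat 1 and -1.62 without corn oil rat 1. Krt20, a marker of severely injured tubules, was not well above background on any of the 6 arrays, where its probe read between -8.26 and -7.68.

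The annexins and S100 proteins, calcium-binding proteins at the membrane of activated cells, were the most even group. Differences of Anxa1, Anxa2, S100a6 and S100a11 ran from -0.052 to 0.090, with adjusted p values of at least 0.46. Anxa2 had the tightest spread of the set, with 3.74, 3.82 and 3.85 in corn oil and 3.93, 3.84 and 3.91 in ADBAQ, and the 95% interval of its difference ran from -0.060 to 0.24. Lgals3, the macrophage and tubule lectin galectin-3, differed by -0.17 ± 0.15 (SE, adjusted p = 0.57).

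Among surface receptors, Cd44, which binds hyaluronan and osteopontin, was the other member with separate groups. It read -1.79, -1.36 and -1.37 in corn oil and -1.32, -1.10 and -1.24 in ADBAQ. The gap between corn oil rat 2 and ADBAQ rat 1 was small beside the distance of corn oil rat 1 from the rest. The difference was 0.28 ± 0.14 (SE, n = 3 per group, adjusted p = 0.32) and 0.14 without corn oil rat 1. A further Cd44 probe gave 0.33 and another -0.0045, the latter on a much dimmer signal of -4.18 to -3.99.

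Vcam1, an adhesion molecule for leukocytes on endothelium and on tubules that fail to recover, read 2.07, 2.51 and 2.26 in corn oil and 1.97, 2.18 and 2.27 in ADBAQ. The groups overlapped, and the difference was -0.14 ± 0.14 (SE, adjusted p = 0.61). It was -0.25 without corn oil rat 1 and -0.027 without corn oil rat 2. Tnfrsf12a, the receptor of the cytokine TWEAK, read 0.45, 1.41 and 0.58 in corn oil and 0.37, 0.64 and 1.82 in ADBAQ. A single rat stood high in each group, corn oil rat 2 and ADBAQ rat 3, and the difference of 0.13 ± 0.45 (SE, adjusted p = 0.89) was -0.31 without ADBAQ rat 3. Cdh6, a cadherin of the proximal tubule, Plaur, the urokinase receptor, and Gpnmb, a glycoprotein of macrophages, had differences of 0.16, 0.086 and 0.059 with adjusted p values of 0.45, 0.71 and 0.79.

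Fibrinogen chains are made in liver and, after injury, in tubule cells. Fga read 0.33, 0.66 and 1.11 in corn oil and 0.44, 0.38 and 1.35 in ADBAQ, and Fgb read -0.75, -0.28 and -0.46 in corn oil and -0.60, -0.66 and 0.34 in ADBAQ. ADBAQ rat 3 was the highest of the 6 for both chains, and ADBAQ rats 1 and 2 lay within the corn oil range. The differences were 0.024 ± 0.32 and 0.19 ± 0.30 (SE), with adjusted p values of 0.98 and 0.75, and -0.29 and -0.14 without ADBAQ rat 3. Fgg did not follow them: its brighter probe was well above background on 1 corn oil and 2 ADBAQ arrays and was highest in ADBAQ rat 2, at -3.91 against -5.55 in ADBAQ rat 3. Fgg was left out by the filter on dim probes. On the brighter probe the ADBAQ rats lay above the corn oil rats, which read -5.77, -5.71 and -5.61, but ADBAQ rat 3 was not well above background. On the other Fgg probe the groups overlapped. It read -6.15, -6.42 and -6.04 in corn oil and -5.20, -5.37 and -6.59 in ADBAQ.

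**Figure D2:**
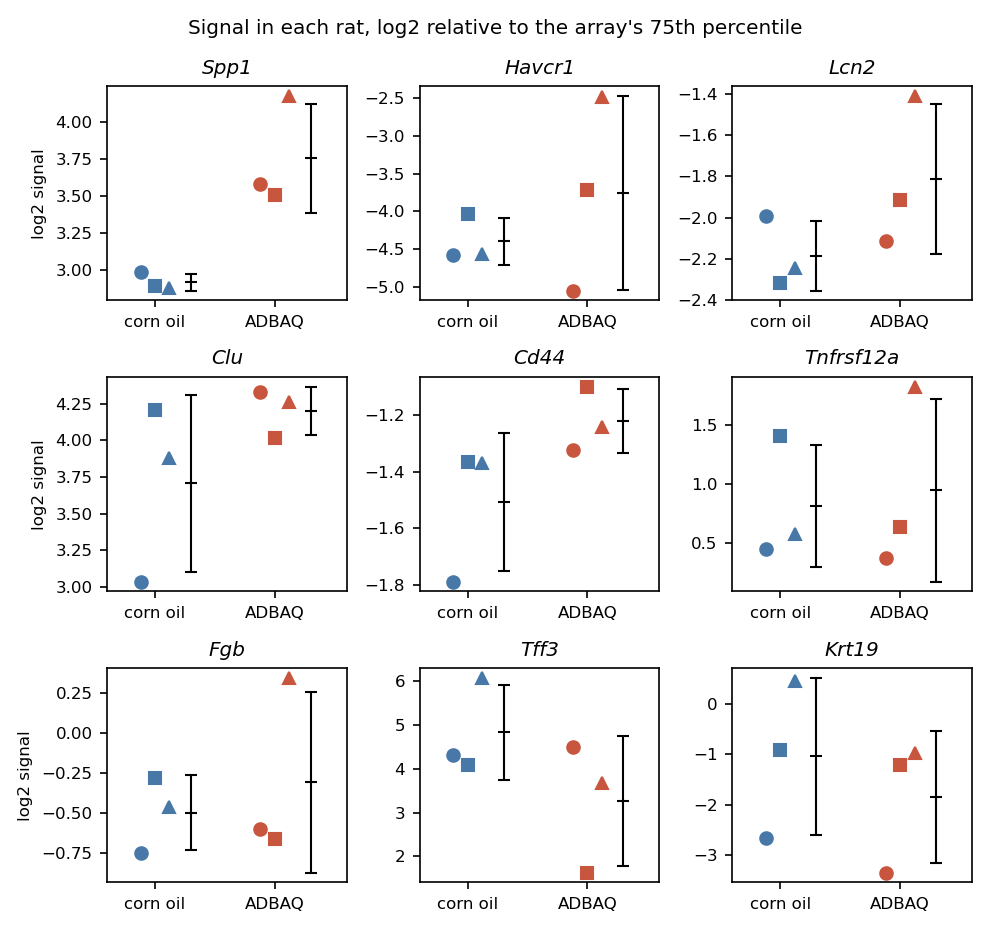
Log2 signal relative to the array's 75th percentile (y axis, a separate scale for each gene) in corn oil (blue) and ADBAQ (red) rats for 9 members. Circles, squares and triangles are rats 1, 2 and 3 of a group, and black bars give the mean and SD of 3 rats. ADBAQ rat 3 is the highest of the 6 for Spp1 at 4.18, Havcr1 at -2.48, Lcn2 at -1.41, Tnfrsf12a at 1.82 and Fgb at 0.34, while Tff3 and Krt19 spread widely in both groups.

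Agreement of the members was read within each rat, setting an ADBAQ rat against the mean of the 3 corn oil rats and a corn oil rat against the mean of the other 2. In ADBAQ rat 3, 19 of 28 members were above the reference (67.9%, against 49.1% of all genes), 7 of them by more than 0.5, where 3.93% of all genes exceeded it by that much. These were Havcr1 (1.91 above), Spp1 (1.26), Tnfrsf12a (1.01), Fgb (0.84), Lcn2 (0.78), Fga (0.65) and Clu (0.55), and Tff3 (-1.15) lay more than 0.5 below. ADBAQ rat 1 had 16 members above (57.1%, against 45.7% of all genes), with Igfbp1 (0.67), Spp1 (0.66) and Clu (0.62) over 0.5, and Krt19 (-2.31), Havcr1 (-0.66) and A2m (-0.60) below -0.5. ADBAQ rat 2 also had 16 above (against 49.6% of all genes), with Havcr1 (0.68) and Spp1 (0.59) over 0.5 and Tff3 (-3.20) below. Over all genes, 4.01% lay above 0.5 and 5.24% below -0.5 in ADBAQ rat 1, and 4.95% and 4.76% in ADBAQ rat 2. In ADBAQ rat 3, 4.22% of all genes lay below -0.5. Spp1 was the member that exceeded the corn oil mean by more than 0.5 in all 3 ADBAQ rats. Corn oil rats also had such members, but their reference leaves out the rat itself, which widens its deviations, so the cut of 0.5 is not the same. In corn oil rat 2, 4 members lay more than 0.5 above the reference (4.26% of all genes), and in corn oil rat 3, 3 did (4.11%). In corn oil rat 1, 6 lay more than 0.5 below it (5.19% of all genes).

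The medians over the members were small beside those single values: 0.036, 0.052 and 0.085 in ADBAQ rats 1, 2 and 3, and -0.18, 0.13 and -0.019 in corn oil rats 1, 2 and 3. The corn oil medians spanned a wider range than the ADBAQ medians, with 8, 21 and 13 members above the reference in corn oil rats 1, 2 and 3. Leaving a corn oil rat out of its own reference widens its deviations, so the ranges of the groups are not on the same scale. The corn oil order, with rat 1 lowest and rat 2 highest, was also that of the medians of 3 marker lists. These were -0.17, 0.15 and 0.032 for leukocyte, -0.17, 0.22 and -0.077 for fibroblast and matrix, and -0.065, 0.13 and 0.021 for collecting duct and medulla genes. In ADBAQ rats 1, 2 and 3 they were -0.045, 0.041 and 0.11, then -0.26, -0.037 and -0.19, and then 0.090, 0.062 and 0.011. The other lists did not share the corn oil order. Proximal tubule, for example, had 0.034, -0.057 and -0.018 in corn oil rats 1, 2 and 3. The part of any list in the members' values was not tested.

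**Figure D3:**
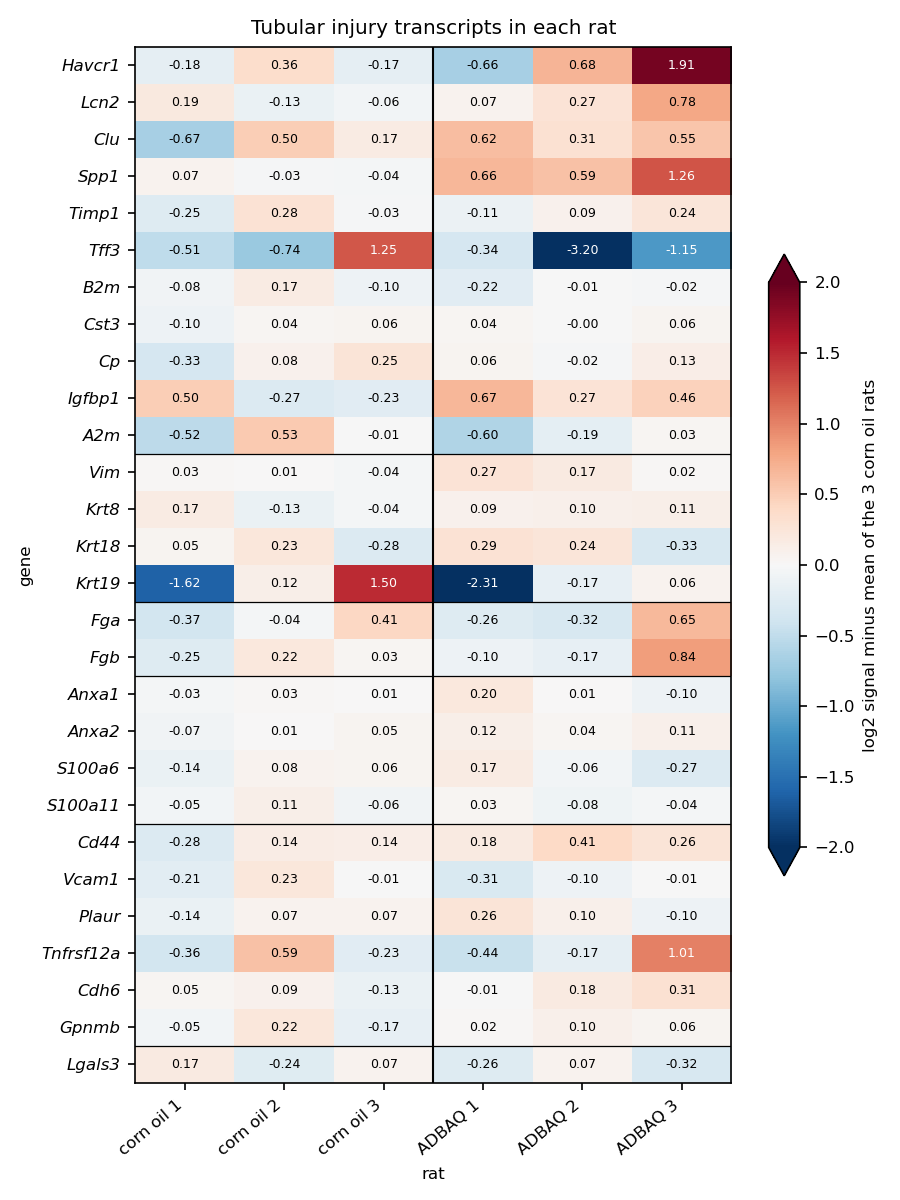
Log2 signal of each tested member (rows, ordered by role, with black lines between roles) in each rat (columns) minus the mean of the 3 corn oil rats, with colours limited to -2 and 2 and the value printed in each cell. Havcr1, Spp1, Tnfrsf12a, Fgb, Lcn2, Fga and Clu exceed 0.5 in ADBAQ rat 3, and Spp1 exceeds it in all ADBAQ rats.

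Each rat was also placed by how often it held the highest or lowest of the 6 signals, which needs no reference. ADBAQ rat 1 was the highest in 8 members (28.6%, against 12.9% of all genes), namely Clu, Igfbp1, Vim, Krt18, Anxa1, Anxa2, S100a6 and Plaur. ADBAQ rat 3 was the highest in 7 (25.0%, against 15.0%), namely Havcr1, Lcn2, Spp1, Fga, Fgb, Tnfrsf12a and Cdh6. ADBAQ rat 1 was also the lowest in 6 members (21.4%, against 21.8% of all genes), namely Havcr1, B2m, A2m, Krt19, Vcam1 and Tnfrsf12a. ADBAQ rat 3 was the lowest in 4 (14.3%, against 13.0%), namely Krt18, Anxa1, S100a6 and Lgals3. Havcr1 and Tnfrsf12a were thus highest in ADBAQ rat 3 and lowest in ADBAQ rat 1, and Krt18, Anxa1 and S100a6 were the reverse. ADBAQ rat 2 led in Cd44 alone. Corn oil rat 1 was the lowest in 9 members (32.1%, against 18.8% of all genes), namely Clu, Timp1, Cst3, Cp, Fga, Fgb, Anxa2, Cd44 and Plaur.

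**Figure D4:**
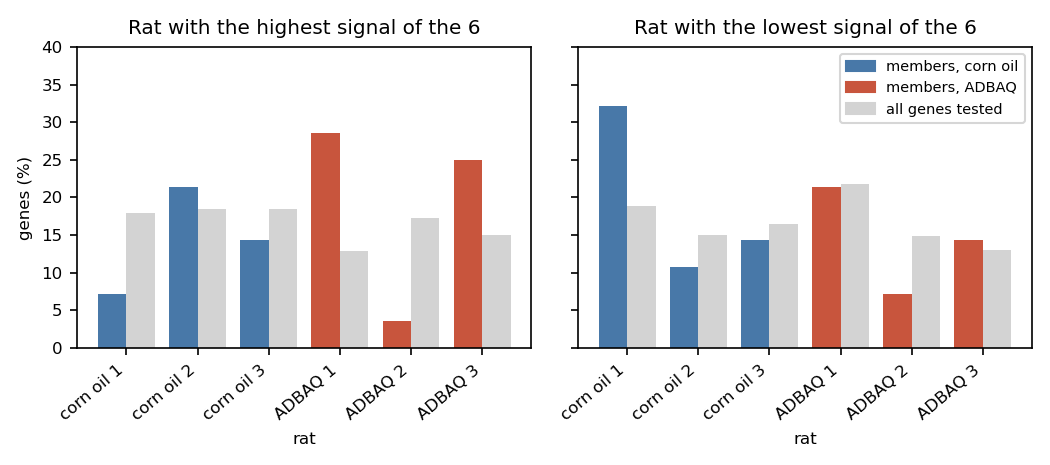
Share of genes (y axis, %) in which each rat (x axis) held the highest signal (left) or the lowest signal (right) of the 6. Blue and red bars are the 28 tested members in corn oil and ADBAQ rats, and grey bars all 12007 genes. ADBAQ rats 1 and 3 lead in 28.6% and 25.0% of members, and corn oil rat 1 is lowest in 32.1%.

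Promoters of the 6 members that were highest of all rats in ADBAQ rat 3 and more than 0.5 above the corn oil mean there are shown, because these genes were high together in a single animal. Each is the 250 bases before the RefSeq start site (build GRCr8), 5′ to 3′ on the gene's strand. Capitals mark matches on either strand to 4 motifs, and run together where matches overlap. The AP-1 motif searched was TGANTCA, the STAT motif was TTCNNNGAA and the core promoter box was TATAAA. The NF-kB type motif was GGG followed, after 5 bases of any kind, by CC. Havcr1 lies at chr10:31629528-31629777 (plus strand), Lcn2 at chr3:36081781-36082030 (minus strand), Spp1 at chr14:5619805-5620054 (minus strand), Fga at chr2:170671919-170672168 (plus strand), Fgb at chr2:170700876-170701125 (minus strand) and Tnfrsf12a at chr10:13213649-13213898 (minus strand).
Havcr1: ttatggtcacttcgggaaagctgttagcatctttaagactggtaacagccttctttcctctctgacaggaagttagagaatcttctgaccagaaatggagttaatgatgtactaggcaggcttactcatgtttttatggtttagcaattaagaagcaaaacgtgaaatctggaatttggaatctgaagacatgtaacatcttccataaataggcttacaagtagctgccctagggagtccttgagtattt
Lcn2: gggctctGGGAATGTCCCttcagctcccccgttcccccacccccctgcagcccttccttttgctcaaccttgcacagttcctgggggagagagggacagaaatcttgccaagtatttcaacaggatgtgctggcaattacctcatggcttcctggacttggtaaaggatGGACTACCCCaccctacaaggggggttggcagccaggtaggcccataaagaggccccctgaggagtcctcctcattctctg
Spp1: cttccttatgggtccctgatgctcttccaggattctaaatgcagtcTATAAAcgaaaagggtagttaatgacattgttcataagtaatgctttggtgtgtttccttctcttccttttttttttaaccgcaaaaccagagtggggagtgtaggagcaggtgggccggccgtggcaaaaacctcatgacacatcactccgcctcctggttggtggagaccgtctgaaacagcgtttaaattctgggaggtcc
Fga: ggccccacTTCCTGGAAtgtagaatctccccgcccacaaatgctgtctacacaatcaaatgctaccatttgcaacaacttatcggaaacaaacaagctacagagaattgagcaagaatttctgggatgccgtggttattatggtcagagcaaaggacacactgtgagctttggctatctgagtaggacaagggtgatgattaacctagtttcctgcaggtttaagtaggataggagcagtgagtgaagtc
Fgb: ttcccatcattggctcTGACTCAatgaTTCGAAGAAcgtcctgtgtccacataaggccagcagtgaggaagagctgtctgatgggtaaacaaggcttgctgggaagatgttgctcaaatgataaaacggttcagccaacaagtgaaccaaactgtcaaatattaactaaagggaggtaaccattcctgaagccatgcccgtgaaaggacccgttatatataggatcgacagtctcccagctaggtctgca
Tnfrsf12a: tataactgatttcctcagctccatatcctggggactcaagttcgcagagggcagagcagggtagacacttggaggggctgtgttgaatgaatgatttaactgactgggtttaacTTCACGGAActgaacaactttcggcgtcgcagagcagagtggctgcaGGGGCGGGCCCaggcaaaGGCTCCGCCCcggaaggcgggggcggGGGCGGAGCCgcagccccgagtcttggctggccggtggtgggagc

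No motif of the 4 was common to these 6 windows. A STAT match lay in Fga, Fgb and Tnfrsf12a, an NF-kB type match in Lcn2 and Tnfrsf12a, an AP-1 match in Fgb and a TATAAA match in Spp1, 204 to 199 bases before its start. The Havcr1 window held no match to the 4 motifs. Over the 27 members with a promoter entry, AP-1 was matched in 5 (18.5%, against 6.36% of 27457 promoters), STAT in 4 (14.8%, against 7.52%), the NF-kB type motif in 14 (51.9%, against 43.5%) and TATAAA in 12 (44.4%, against 13.1%). A match is a run of letters and was not linked to binding.

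The spread between rats of a group was wider for the members than for most genes. Of the 28, 22 (78.6%) had a pooled SD above the median of all genes and 8 (28.6%) were above the level that 90% of genes stay under. The median SD was 0.215 for members and 0.119 for all genes. Krt19 (1.44), Tff3 (1.30), Havcr1 (0.94) and Tnfrsf12a (0.66) had the largest, and Anxa2 (0.054) and Cst3 (0.064) the smallest. The 95% intervals of their differences reached beyond 1 on the log2 scale in at least 1 direction for each of the first 4, and stayed within 0.25 of 0 for Anxa2 and Cst3.

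**Figure D5:**
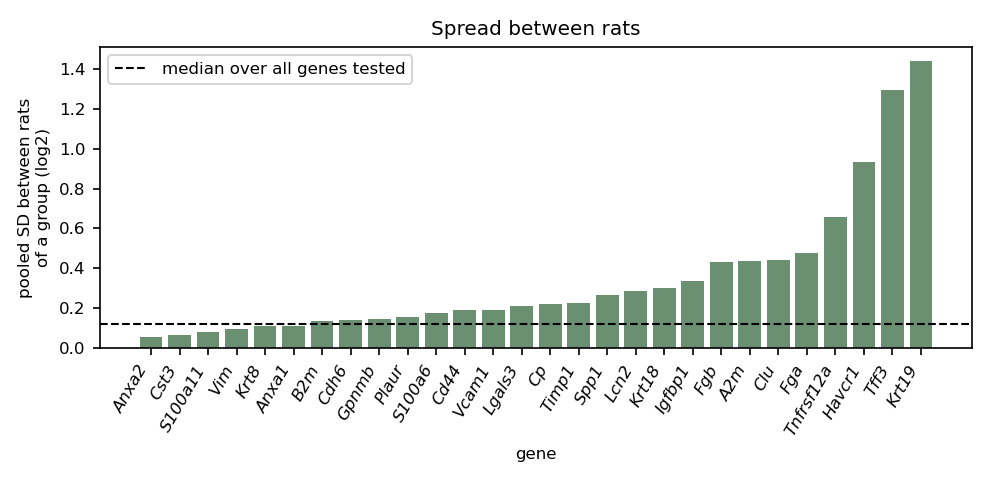
SD between rats of a group, pooled over both groups (y axis, log2), for the 28 tested members (x axis, sorted by SD). The dashed line is the median of 0.119 over all genes tested, and 22 members lie above it.

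Other genes of injury and repair gave values of the same test. Of 36 tested, limma called 0, and 12 (33.3%) had an unadjusted p under 0.05, against 19.4% of all genes. ADBAQ rats lay above all corn oil rats in 8 (22.2%, against 12.7%) and below in 4 (11.1%, against 14.9%). The genes with the smallest p were Egfr, the epidermal growth factor receptor (-0.69 ± 0.092 SE, adjusted p = 0.057), and Il34, a macrophage growth factor made by tubules (-0.51 ± 0.079 SE, adjusted p = 0.072). Gdf15, a stress cytokine (1.09 ± 0.17 SE), and Prom1, a marker of tubular progenitor-like cells (-0.94 ± 0.15 SE), followed with an adjusted p of 0.073 each and were picked once their values were known. A difference between these genes and the members was not tested.

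No other region of the kidney was compared, so the label of cortex was not checked. Proximal tubule genes were detected: all 24 listed were tested, and the phosphate transporter gene Slc34a1 read 8.42 to 8.51. The summed signal of this list, in which the brightest probes weigh most, was 3782 to 3983 times the 75th percentile in corn oil and 3622 to 3716 in ADBAQ, ranges that do not overlap. ADBAQ rats lay wholly below corn oil rats in 7 of the 24, against 14.9% of all genes, and wholly above in 1, against 12.7%. Over the list, however, 11 differences were positive and 13 negative, with a median of -0.028, against -0.011 over all genes. The list medians were -0.039, 0.0037 and -0.029 in ADBAQ rats 1, 2 and 3. Limma called 0 of 24. In this and the following lists, genes with an unadjusted limma p under 0.05 are counted, where 19.4% of all genes had one. The 6 in this list all had lower means in ADBAQ, led by Miox (-0.21 ± 0.053 SE) and Aqp1 (-0.44 ± 0.11). In thick limb and distal tubule 3 of 9 markers had an unadjusted p under 0.05 (Cldn10 at -0.38 ± 0.11 and Calb1 at 0.51 ± 0.15), and in collecting duct and medulla 4 of 13 (Krt7 at -0.41 ± 0.066 and Slc4a1 at 0.62 ± 0.13). In glomerulus these were 2 of 10 (Nes at 0.23 ± 0.078 and Tcf21 at 0.30 ± 0.11), in endothelium 3 of 11 (Ehd3 at -0.47 ± 0.10 and Sox17 at 0.30 ± 0.089), and in fibroblast and matrix 2 of 10 (Col1a1 at -0.62 ± 0.16 and Bgn at -0.26 ± 0.095). Leukocyte markers gave 2 of 22, led by Cd52 (1.40 ± 0.20) and by Itgam (1.27 ± 0.35), which was well above background on 1 of 3 corn oil arrays. Their summed signal of 57.4 to 67.9 in corn oil and 54.8 to 65.8 in ADBAQ overlapped. Limma called none of these markers. Red cell genes differed from them: 7 of 7 had an unadjusted p under 0.05 and 3 rose (Alas2, Hbb and Hemgn, by 1.61 ± 0.092, 1.04 ± 0.080 and 1.07 ± 0.083 SE, adjusted p = 0.0065, 0.012 and 0.012), with summed signals of 161 to 177 in corn oil and 319 to 370 in ADBAQ. Their median excess over corn oil was 0.97, 0.94 and 1.12 in ADBAQ rats 1, 2 and 3. The part of red cell and proximal tubule genes in the members' values was not tested.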

How the data were processed

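Total RNA from renal cortex of 6 rats, 3 per group, was labelled with Cy3 and hybridised to 1-colour Agilent rat arrays of 62976 spots, per the labels' protocols. Per the file headers, the authors read the spots with Feature Extraction 10.7.1.1 (Agilent Feature Extraction 10.7 in the submitters' processing notes), and the deposited files give a background-subtracted signal intensity per spot, median intensities and flags (other units). In the table the authors deposited for the series, values are, to within 1.33% for probes with a mean signal above 100, the ratio of a spot's signal to a constant of its array, which lay within 0.145% of the 75th percentile used here. No source used here says how that constant was chosen.

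The 1319 control spots were dropped, as were 73 probes with an outlier flag on at least 1 array, and the log2 signal was taken relative to each array's 75th percentile, which lay between 1127 and 1308. Probes well above background on all 3 arrays of a group (42256 of 61584) were kept, accessions were matched to RefSeq symbols (27430 probes, 15276 genes, assembly GRCr8, symbols and promoter windows only), and each gene was represented by its passing probe with the highest mean, giving 12007 genes. The test was limma's (version 3.58.1, R 4.3.3): lmFit on group alone, then eBayes, with two-sided p-values, Benjamini-Hochberg adjustment and a threshold of 0.05. The precision is limited by 3 arrays per group, for which a permutation test cannot go below p = 0.1. The fit was also run on simulated data with independent normal noise, as a check of the code. Its recovery of small differences is not given here, so the check says nothing about the absence of calls.

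Members, roles and marker lists (other injury and repair genes, proximal tubule, thick limb and distal tubule, collecting duct and medulla, glomerulus, endothelium, fibroblast and matrix, leukocyte, red cell) were chosen with earlier results of these data known. All members are named. Values per rat are given for those with an unadjusted p under 0.05, separate groups or a difference of 0.5 or more, and for a fixed set of well-known ones. From each list, called genes or else the 2 with the smallest p are named. Whether same-numbered rats pair was not decided. Their deviations from the group means correlated at 0.0094, 0.157 and 0.0349 across genes, and those of differently numbered rats at -0.157 to 0.131. The number was not a block in the main fit. Alternatives were other scaling, background correction, filters, probe choices and variance models, the authors' table, a replicate block and leaving out each rat. Tools for reading were data.table (version 1.17.8) and pandas 2.3.3, and figures drawn with matplotlib 3.10.9 in Python 3.11.15.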

Additional observations from a re-analysis of the deposited data

How the results depend on the processing

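Over 15 settings besides other probes, 12 of 28 members kept 1 sign and 16 changed it in at least 1 setting. No member was called in any of them except Spp1 without scaling between arrays. That setting gave 1 member called higher, 8 members with ADBAQ rats wholly above corn oil, a member median of 0.23, and 1027 genes higher and 54 lower over all genes, against 27 and 8. The share of all genes wholly above was not counted without scaling. It also turned B2m to 0.080, S100a6 to 0.11, S100a11 to 0.13 and Vcam1 to 0.022, with the median of all genes at 0.15. Counts over all genes were 66 and 77 with normexp and 72 and 84 when variances were fitted robustly along a trend, and 4 genes were lower without the detection filter. With normexp, Timp1 was -0.038, Krt18 -0.012, Anxa2 -0.024 and Plaur -0.017. Cp was -0.029 with the mean of its probes and -0.058 and -0.13 on other probes, and a dim Cd44 probe gave -0.0045. The cause of these changes was not tested.

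With the replicate number as a block, 0 genes were higher and 0 lower, 4 members had an unadjusted p under 0.05, and no member's call changed. The share of all genes under 0.05 was not counted with the block, so this count of 4 says nothing particular to the members. Whether the numbers pair the rats was not decided.

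Leaving out 1 rat at a time gave 11 to 25 genes higher and 3 to 10 lower, 3 to 6 members wholly above and 0 to 1 wholly below. The genes higher numbered 11 without corn oil rat 1, 16 without corn oil rat 2, 14 without corn oil rat 3 and 12 without ADBAQ rat 2. Members wholly above numbered 6 without corn oil rat 1, 5 without ADBAQ rat 1 or 3, and 4 without corn oil rat 2 or ADBAQ rat 2. Groups separate more easily with fewer rats, and the share of all genes wholly above or below was not counted here. These counts therefore say nothing particular to the members. Members that changed sign ranged as follows: Timp1 from -0.055 to 0.21, B2m from -0.13 to 0.0026, Cst3 from -0.019 to 0.060, Cp from -0.11 to 0.18, A2m from -0.51 to 0.014, Krt18 from -0.073 to 0.26, Fga from -0.29 to 0.23, Fgb from -0.14 to 0.37, Anxa1 from -0.041 to 0.11, S100a6 from -0.16 to 0.056, S100a11 from -0.062 to 0.028, Plaur from -0.0016 to 0.18, Tnfrsf12a from -0.31 to 0.43 and Gpnmb from -0.026 to 0.17. The filter on dim probes left out Krt20, Mmp7 and Fgg. Without it 0 members were called, 3 lay wholly above (the share of all genes was not counted) and the member median was 0.086.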

Other observations

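Other genes ordered the rats as Tff3 did, with corn oil rat 3 the highest and ADBAQ rat 2 the lowest. Among 560 genes whose signals ranged over more than 1.5 on the log2 scale, 81 (14.5%) had this order, against 5.16% of all genes tested. Agt, which encodes angiotensinogen, read 0.41, 0.09 and 2.60 in corn oil rats 1, 2 and 3 and 0.39, -1.77 and -0.10 in the ADBAQ rats. Hnmt, an enzyme that methylates histamine, read -0.04, -0.71 and 1.89 in corn oil and 0.44, -2.35 and -0.45 in ADBAQ. The organic anion transporter gene Slco1a1 read 0.74, -0.32 and 2.04 in corn oil and -0.17, -3.44 and -0.90 in ADBAQ. The cytochrome P450 gene Cyp2d1 read 4.60, 4.17 and 5.21 in corn oil and 4.63, 2.40 and 3.57 in ADBAQ, and the transporter gene Slc22a22 read 2.71, 2.15 and 3.61 against 1.93, 0.08 and 1.91. All of these genes were chosen after their values were seen, and none passed limma's adjusted threshold, with adjusted p values from 0.26 to 0.53.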
